A study of Eohaustorius estuarius with 16 samples.

Results

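Of 7574 array contigs tested in the amphipod Eohaustorius estuarius, 86 gave a higher signal on every one of the 8 cyfluthrin arrays than on any of the 8 control arrays. A contig is a stretch of transcript assembled from sequencing reads, and each contig here was read by a single probe on an Agilent array. The 86 were selected on the treatment contrast itself, by asking that the lowest of the 8 cyfluthrin values exceed the highest of the 8 control values, so their number, their changes and the gap between their groups are a description and carry no test. They are 1.14% of the contigs tested. A further 59 contigs were lower on every cyfluthrin array, and 933 of the 8507 contigs on the array were too dim to be tested.

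Both groups of amphipods were held for 10 days in sediment. The control sediment was spiked with solvent alone, and the exposed animals had sediment spiked with cyfluthrin at a nominal 1.6 µg/kg. One laboratory made the total RNA extracts from whole bodies, and the arrays analysed here are those that laboratory B, of 6 laboratories, labelled with Cy3 and hybridised, with 8 control and 8 cyfluthrin arrays. How many animals went into an extract, and how they were housed, is not in the labels, so any p-value measures the spread between these extracts, which may be technical in part. In whole-body RNA more cells of a type and more RNA per cell cannot be told apart.

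Cyfluthrin is a pyrethroid, and pyrethroids hold open the voltage-gated sodium channels of nerve and muscle membranes, which makes arthropods hyperactive and then paralysed. Arthropods break pyrethroids down mainly with carboxylesterases and cytochrome P450 enzymes. Eohaustorius estuarius is a burrowing amphipod used to judge the toxicity of coastal sediments, and pyrethroids bind strongly to sediment. The contigs carry numbers only in the sources used here, with no gene name, no sequence and no description. Lists of detoxication, chaperone, cuticle, digestive, muscle, haemolymph, ovary and ribosomal genes could therefore not be applied, and no role is given for any contig.

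All signals are log2 processed signals after subtracting the array's own 75th percentile, so 0 is the level of that percentile and a step of 1 is a doubling. A log2 change is the cyfluthrin mean minus the control mean. The gap is the lowest cyfluthrin value minus the highest control value. The 75th percentile of the arrays lay between 463 and 796 intensity units. Between 80.6% and 95.4% of spots were well above background.

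The 86 contigs ranged from small to large changes without a clear break between. Their log2 changes ran from 0.28 to 3.88 with a median of 1.22, where the median over all tested contigs was 0.01. The change was at least 3 for 24 contigs, from 2 to under 3 for a further 12, from 1 to under 2 for 9 and under 1 for 41, of which 14 were under 0.5. Every tested contig with a log2 change of at least 2 was among the 86, since all 36 of them are members. The gap had a median of 0.34 and ran from 0.00034 to 1.84.

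**Figure D1:**
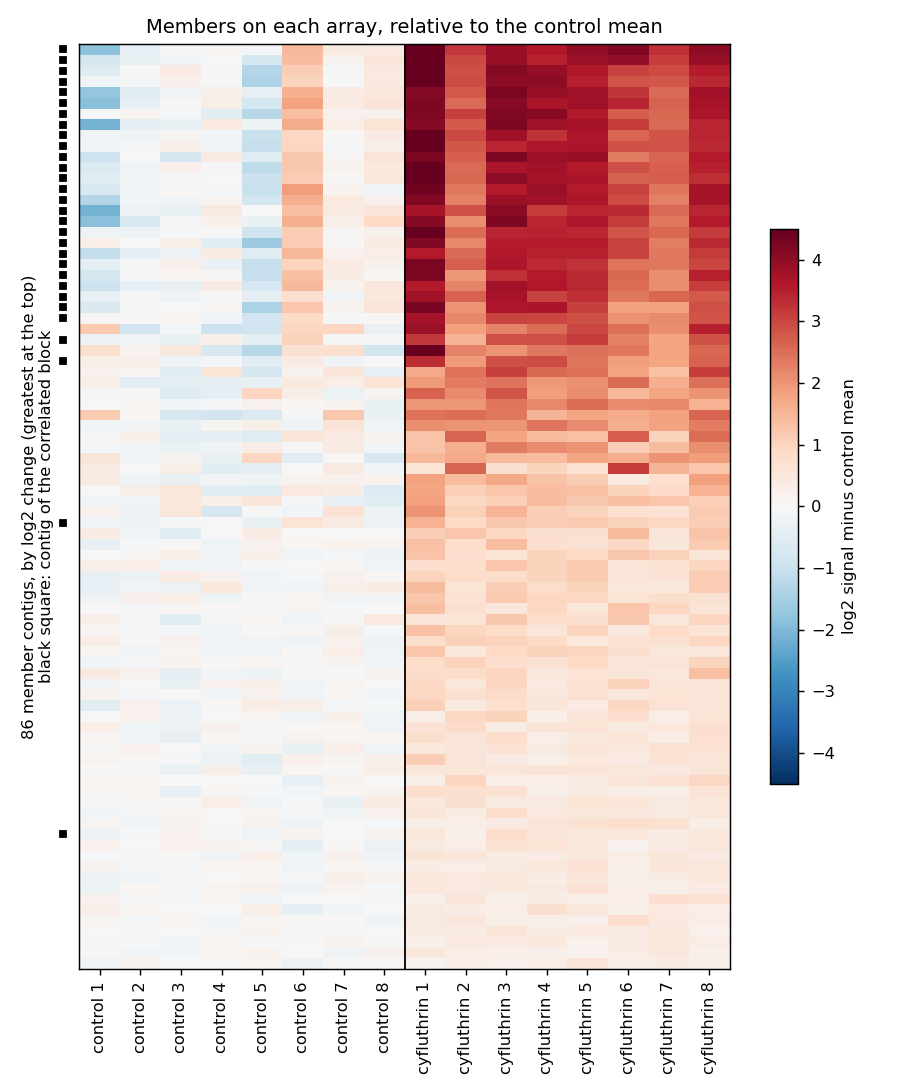
Log2 signal of the 86 contigs (rows, greatest change at the top) on the 16 arrays (columns), relative to each contig's control mean; a black square marks a contig of the correlated block, and the darkest red also holds values beyond the end of the scale. The 30 marked contigs lie mostly at the top, and for 29 of them control 6 is the highest control.

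The greatest change was that of contig_2303. Its control values were -3.08, -1.60, -1.34, -1.15, -1.28, 0.22, -0.85 and -0.88 in replicates 1 to 8, and its cyfluthrin values were 3.58, 1.94, 2.67, 2.38, 2.75, 2.92, 2.03 and 2.79. Control 1 was low and control 6 high, and the gap from control 6 to cyfluthrin 2, the lowest exposed array, was 1.72. The means were -1.25 ± 0.92 and 2.63 ± 0.52 (SD, n = 8 each), a 14.7-fold difference.

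The next was contig_4609, with control values of -4.40, -3.92, -3.78, -3.64, -4.38, -2.23, -3.44 and -3.06. On the cyfluthrin arrays it measured 1.005, -0.63, 0.30, -0.14, 0.29, 0.35, -0.48 and 0.30. Control 6 was again the highest control and cyfluthrin 2 the lowest exposed array, and the spread was narrower among the exposed arrays (SD 0.52) than among the controls (SD 0.72, n = 8 each).

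For contig_4879 the control values were -2.01, -1.47, -1.06, -1.40, -2.77, -0.32, -1.50 and -1.05, and the cyfluthrin values were 3.83, 1.47, 2.67, 2.50, 2.17, 1.58, 1.50 and 2.09. Here control 5 was the lowest control rather than control 1. The log2 change was 3.68 (SE 0.36), or 12.8-fold.

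For contig_5659 the control values were -3.98, -3.85, -3.57, -3.77, -5.17, -2.80, -3.80 and -3.33. Its cyfluthrin values were 1.58, -0.86, 0.24, 0.24, -0.30, -0.94, -0.98 and -0.38. The arrays stood in nearly the same order as for contig_4879, with control 5 lowest, control 6 highest and cyfluthrin 1 far above the rest of its group, at a log2 change of 3.61 (SE 0.36).

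The widest gap, 1.84, was that of contig_5795. Its control values were -2.51, -2.41, -2.15, -2.55, -3.41, -1.42, -2.41 and -2.10, and its cyfluthrin values were 2.54, 0.42, 1.05, 1.25, 1.32, 0.49, 0.46 and 0.99. Cyfluthrin 1 stood apart from its group. The log2 change was 3.43 (SE 0.30).

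The narrowest gap, 0.00034, was that of contig_1515, which also had the smallest change. Its control values were 1.47, 1.75, 1.57, 1.57, 1.71, 1.30, 1.65 and 1.63, and its cyfluthrin values were 1.75, 1.89, 1.76, 1.87, 2.15, 1.79, 1.92 and 1.80. Control 2 and cyfluthrin 1 were level after rounding, and the log2 change was 0.28 (SE 0.085).

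**Figure D2:**
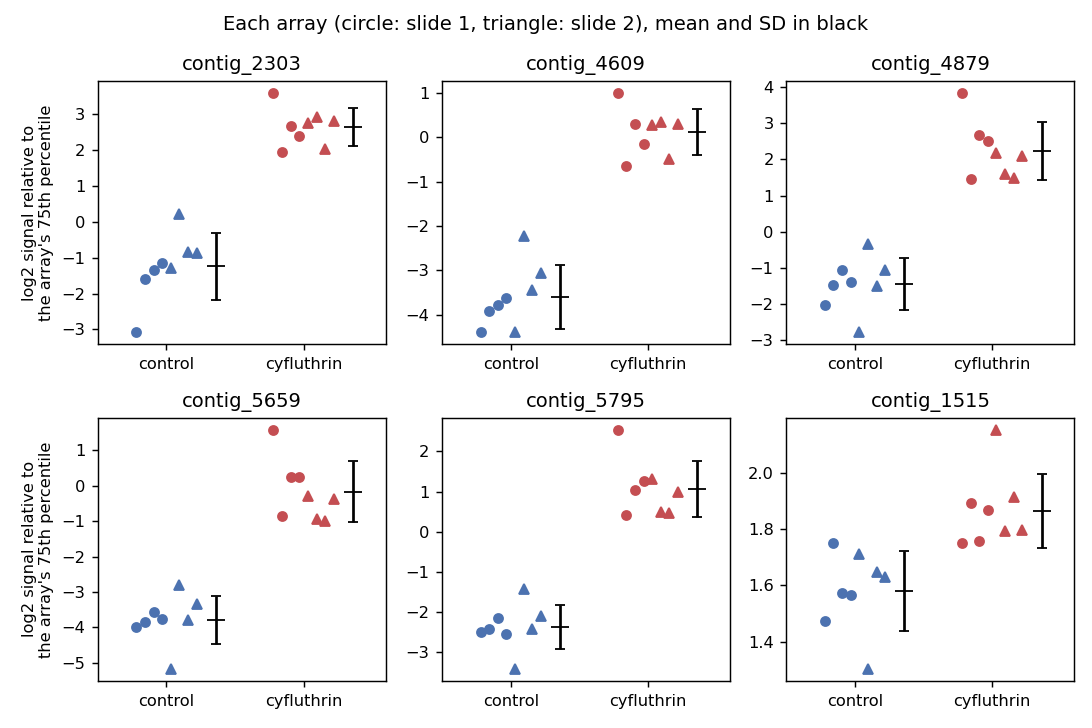
Log2 signal relative to the array's 75th percentile for the 5 contigs with the greatest changes or the widest gap and for contig_1515, one point per array (circles slide 1, triangles slide 2), with the mean and SD of 8 arrays in black. The vertical scales differ between panels; the groups are far apart in the first 5 and touch in contig_1515.

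Contig_6271, contig_7650, contig_6676, contig_3691 and contig_4735 completed the 10 greatest changes, at 3.55, 3.52, 3.51, 3.46 and 3.44 (SE 0.38, 0.41, 0.32, 0.41 and 0.30). The widest gaps belonged to contig_5795, contig_5659, contig_4879, contig_2303 and contig_4735, all of which are also among those 10. At the other end, contig_3085, contig_2720 and contig_5556 had changes of 0.33, 0.36 and 0.40 (SE 0.082, 0.075 and 0.072). Their SDs were between 0.082 and 0.137 in either group, below the medians of the 86. With spike-in scaling the changes of contig_1515, contig_3085, contig_2720 and contig_5556 shrank to 0.04, 0.08, 0.11 and 0.15.

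The rule drew a line through a continuous range. Just inside it lay contig_1515, contig_2443 (gap 0.00050), contig_6158 (0.0049) and contig_3085 (0.0049). Just outside lay contig_8562 (gap -0.0028), contig_1566 (-0.0031), contig_5040 (-0.0031) and contig_472 (-0.0053). The change of contig_1566 was 1.13, above that of every member with a change under 1, and it was left out because control 5 read 0.524 where cyfluthrin 6 read 0.521. One more contig, contig_2352, was higher on all the cyfluthrin arrays that had a value (lowest 0.826, highest control 0.773), but had no value on cyfluthrin 7, where its reading was set aside as an outlier, so it is not counted.

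**Figure D3:**
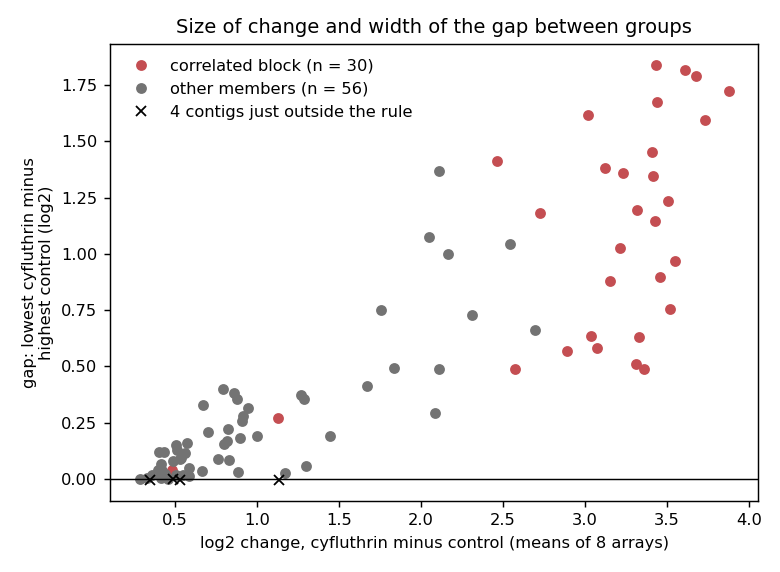
Log2 change (horizontal axis, means of 8 arrays) against the gap between the groups (vertical axis, log2) for the 30 contigs of the correlated block, the 56 other members and 4 contigs just outside the rule. Of the contigs with a change of at least 2, 28 are of the block and 8 are not; gaps among the contigs with changes above 3 run from 0.49 to 1.84.

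Most of the large changes belonged to contigs that also varied together among arrays of the same group. After each contig's group mean was taken away, average linkage on 1 minus Pearson's r over the 16 arrays, with a cut at 0.5 chosen after seeing the data, put 30 of the 86 contigs in a single block. The median log2 change in this block was 3.32 (quartiles 3.05 and 3.46), and it held all 24 contigs with a change of at least 3. The mean levels were not used to form it, but the contigs clustered were all members, so the block itself is a description.

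Within the block the median pairwise r was 0.80 over the 8 control arrays and 0.86 over the 8 cyfluthrin arrays (435 pairs). The 56 other members had medians of 0.06 and 0.08 (1540 pairs), close to 0.04 and 0.06 over all tested contigs. The linkage formed the block from these same deviations, so a high r inside it and a lower r outside it follow in part from its construction. The arrays share their scaling and their hybridisation, and each r rests on 8 points. In the controls the block's agreement owed part of its height to control 6: without that array the median r was 0.66, whereas leaving out any other control gave 0.81 to 0.86. Leaving out any cyfluthrin array gave 0.84 to 0.89.

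**Figure D4:**
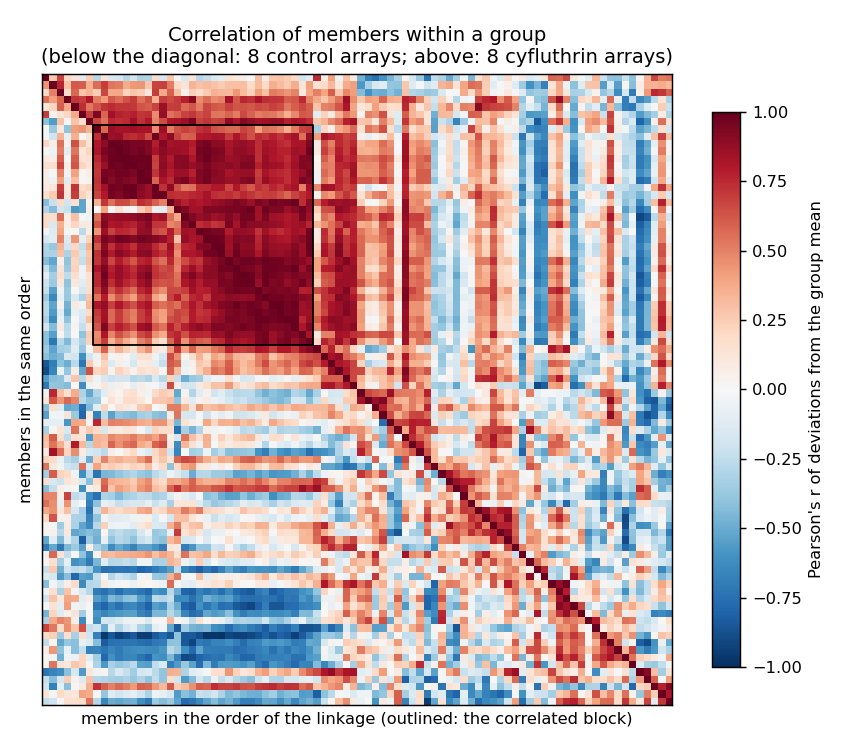
Pearson's r between members after each contig's group mean was taken away, over the 8 control arrays below the diagonal and the 8 cyfluthrin arrays above it, with contigs in the order of the linkage on both axes. The outlined square is the block of 30 contigs, red on both sides of the diagonal, with a paler division inside it.

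The block's mean level shows which arrays carried this shared variation. In the controls it was -2.65, -2.08, -1.97, -1.86, -2.68, -0.72, -1.77 and -1.58 in replicates 1 to 8. On the cyfluthrin arrays it was 2.12, 0.48, 1.65, 1.46, 1.40, 0.77, 0.45 and 1.28. The groups did not overlap, as the rule requires, and the distance from control 6 to cyfluthrin 7 was 1.17. The controls alone spanned a 3.89-fold range and the exposed arrays a 3.18-fold range, against an 8.67-fold difference between the means (-1.91 ± 0.62 and 1.20 ± 0.59, SD, n = 8 each).

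The 56 other members behaved differently on the same arrays. Over the 8 controls their mean level was -1.15 ± 0.085 (SD), and over the 8 exposed arrays -0.17 ± 0.094 (SD), a 1.97-fold difference, and it moved by no more than 1.22-fold within a group. Control 6 lay within 0.0015 of the control mean for these contigs, while it was 1.19 above it for the block.

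**Figure D5:**
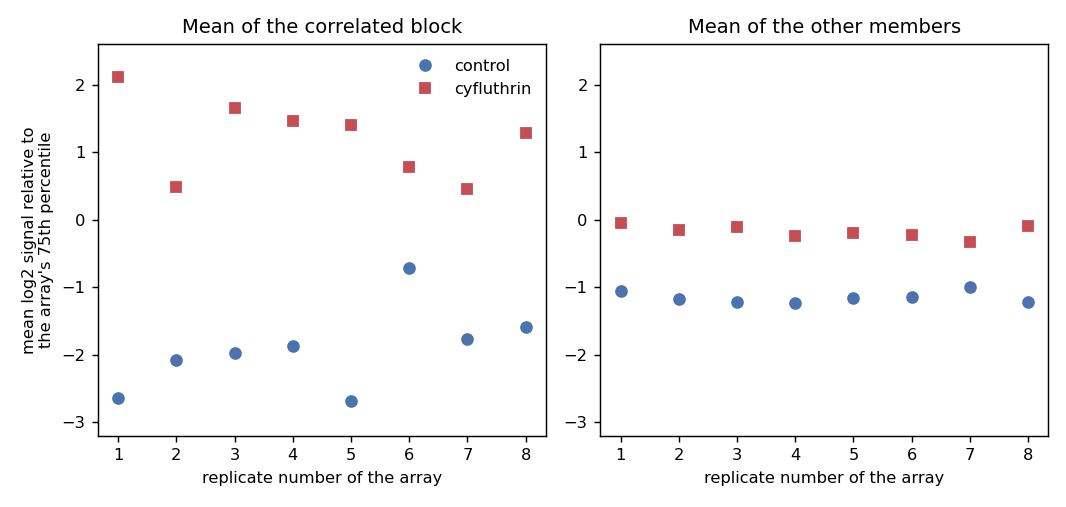
Mean log2 signal relative to the array's 75th percentile over the 30 contigs of the correlated block (left) and the 56 other members (right), by replicate number, for control (circles) and cyfluthrin (squares); replicates 1 to 4 were on slide 1 and 5 to 8 on slide 2. Levels within a group spread over 1.96 in control for the block and over 0.25 for the other members.

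Control 6 set the highest control value for 29 of the 30 block contigs and for 3 of the 56 others. The lowest exposed value of a block contig was on cyfluthrin 2 for 16, on cyfluthrin 7 for 10 and on cyfluthrin 6 for 4. The quality measures of control 6 lay within the range of the other controls: its 75th percentile was 556, its spike-in level 1.06 above that percentile, and 87.1% of its spots were above background. Cyfluthrin 1, the exposed array with the highest block level, also had the highest spike-in level of the 16, at 1.90, and the lowest share of spots above background, at 80.6%; their part in its block level was not tested.

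Inside the block, a closer cut at r of 0.8, also chosen after seeing the data, left 2 tight sets and 3 contigs in neither. The larger held 18 contigs, contig_4879, contig_5659, contig_6676, contig_4735, contig_5795, contig_6094, contig_4071, contig_4158, contig_2547, contig_2743, contig_4390, contig_5085, contig_7422, contig_7908, contig_7311, contig_2699, contig_6580 and contig_8402, with a median r of 0.88 in control and 0.91 with cyfluthrin. The smaller held 9, contig_2303, contig_4609, contig_6271, contig_7650, contig_3691, contig_5141, contig_1993, contig_1455 and contig_7113, with a median r of 0.95 and 0.90. The high r within each set follows from the cut that formed it. The median log2 changes of the 2 sets were much alike, 3.35 and 3.46.

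The sets parted on a few arrays. On control 1 the larger set stood 0.42 below its control mean (deviation -0.42) and the smaller 1.60 below (-1.60). On control 5 the order was turned, with deviations of -1.01 and -0.42. On cyfluthrin 6 the deviations were -0.62 and -0.11, and on cyfluthrin 1 they were 1.13 and 0.65. Both sets were highest among the controls on control 6, at 1.16 and 1.53 above their means.

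The closest pairs of members were contig_6271 and contig_3691 (r = 0.986 over 16 arrays after removal of group means), contig_4879 and contig_5659 (r = 0.984), and contig_4158 and contig_2699 (r = 0.982). The probes of contig_4735, contig_4879 and contig_5659 carry the numbers 4102, 4103 and 4105 in the same probe set, and the 3 pairs among them had r of 0.95 to 0.98. All 3 lie in the larger tight set, so a high r among them follows from the cut that formed it. Over all 3017 pairs of tested contigs numbered 1 apart in a set the median r was 0.07. Those pairs were not selected on r, and contig_5659 is not numbered 1 apart from either of the others, so the values are not directly comparable. Whether closely correlated contigs are pieces of one transcript cannot be told without their sequences, so the 30 contigs of the block need not be 30 genes.

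Among the 7570 tested contigs with a value on every array, some outside the 86 also followed the block within both groups. With a contig's own value left out of the block mean, 12 contigs followed it with r over 0.9 in both groups. All 12 were in the block, which was formed on these same deviations. At r over 0.8 there were 29, of which 24 were in the block and 5 were not members. Those 5 had log2 changes of -0.39 to 0.08, with a median of -0.07. At r over 0.7 a further 20 contigs outside the 86 made 25, with changes of -0.39 to 0.33 and a median of -0.10. Every tested contig with a change of at least 2 is a member, so a follower outside the 86 had to have a smaller change. More contigs ran opposite to the block than followed it from outside the 86: 69 had r below -0.7 in both groups and 11 had r below -0.8. What the followers outside the 86 share with the block was not tested. A single member had r below -0.7 with the block in both groups, contig_5562 (r = -0.74 in control and -0.70 with cyfluthrin), with a log2 change of 0.53.

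The 2 contigs of the block with smaller changes were contig_4554 and contig_7810. The first measured -3.38 at the mean of the controls and -2.25 with cyfluthrin, a log2 change of 1.13 (SE 0.14), and followed the block with r of 0.73 and 0.93. The second had a change of 0.48 (SE 0.094) and r of 0.76 and 0.69. They took part in the shared variation with a far smaller difference between groups.

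Of the 56 members outside the block, 29 lay in 8 smaller clusters of 3 to 5 contigs and 27 in clusters of under 3. These came from the same linkage, so the r within a cluster follows in part from its formation. The cluster of 5 held contig_7533, contig_8441, contig_4484, contig_6287 and contig_5293, with changes of 0.80 to 2.70 and a median r of 0.75 in control and 0.73 with cyfluthrin. The 2.70 is that of contig_7533, which was above background on 0 control arrays, so its control level is only a bound. Contig_8441 was above background on 5 control arrays. The r in control thus rests in part on readings at background. A cluster of 4 held contig_3983, contig_4391, contig_2116 and contig_4495, with changes of 0.83 to 2.16 and a median r of 0.43 and 0.78. Of these, contig_3983 was above background on 3 control arrays. In contrast to the block, contig_4391, singled out after its values were seen, was highest on cyfluthrin 6, 2 and 8 (2.29, 2.18 and 2.09) and between 0.59 and 1.33 on the other exposed arrays.

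The 8 contigs outside the block with a change of at least 2 included several that were dim in control. They were contig_7533 at 2.70 (SE 0.38), contig_8441 at 2.54 (SE 0.38), contig_3983 at 2.16 (SE 0.19) and contig_3155 at 2.09 (SE 0.30), none of them above background on every control array. For contig_7533 and contig_3155 the control level is only a bound, so the fold given with the background calls applies in place of these changes. The remaining 4 were contig_4431, contig_3297, contig_2633 and contig_1240, with changes of 2.31, 2.11, 2.11 and 2.05. Contig_2633 had a gap of 1.37, wider than the gap of most block contigs with a greater change, and its values within a group lay close together (0.25 ± 0.17 over the 8 controls, 2.36 ± 0.29 over the 8 exposed arrays, SD).

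The block and the other members differed in their spread within a group. The median SD of the block was 0.72 in control and 0.65 with cyfluthrin, against 0.20 and 0.24 for the other members and 0.29 and 0.38 for all tested contigs. The SD was higher with cyfluthrin for 47 of the 86 (54.7%) and for 75.7% of all tested contigs. The rule depends on the spread within both groups, so the share among the 86 is not a separate result about them. Why the shares differ was not tested. The greatest SDs among the exposed arrays were 0.94 for contig_6510, 0.94 for contig_2699 and 0.86 for contig_5659. The least were 0.066 for contig_1049, 0.089 for contig_5028 and 0.098 for contig_791.

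For contig_6510, 2 exposed arrays stood above the other 6. It measured -1.92, 0.10, -1.79, -1.53, -1.83, 0.60, -1.02 and -1.28 on cyfluthrin 1 to 8, and between -3.05 and -2.11 on the controls. Cyfluthrin 2 and 6, among the 3 lowest exposed arrays for the block, were the highest here, and r with the block was -0.77 with cyfluthrin and 0.04 in control. Its log2 change was 1.45 (SE 0.34).

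In control animals most of these contigs were measurable, as were most of the tested contigs. All 86 were well above background on all 8 cyfluthrin arrays, which the rule and the filter on dim contigs favour. On all 8 control arrays 80 of the 86 were so, beside 6795 of the 7574 tested contigs. Contig_5085 was above background on 6 control arrays, contig_8441 on 5, contig_3983 on 3 and contig_6676 on 1. No control array had contig_7533 or contig_3155 above background, so these 2 passed the filter on dim contigs through the cyfluthrin arrays alone. Against the lowest signal that counted as well above background, contig_7533 was at least 4.57-fold and contig_3155 at least 2.96-fold higher with cyfluthrin. None of the 86 was saturated on any array, and 0 were among the 200 contigs with the highest control signal of the 7574 tested.

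Several changes were smaller with normexp background correction, which also added an offset and read median signals, so which of these steps moved them was not tested. With it the log2 change of contig_6676 was 1.67 in place of 3.51, that of contig_5085 was 1.94 in place of 3.21, and that of contig_5659 was 2.57 in place of 3.61. It was 2.64 for contig_4609, 2.65 for contig_6271, 2.71 for contig_4735 and 2.78 for contig_5795, while contig_2303 kept 3.36. The median change of the block was 2.65 with that correction. For contig_7533, contig_8441, contig_3983 and contig_3155 it gave 1.26, 1.54, 1.26 and 1.03.

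Repeated spots on an array gave similar readings. There were 67 members with 2 spots per array and 19 with 1, and 0 had more. The typical difference between the 2 spots of a member had a median of 0.066 on the log2 scale and ran from 0.022 to 0.23. In 52 of the 67 each spot on its own met the rule, in 10 a single spot did and in 5 neither did. The members were selected on the mean of these same spots, so this split follows in part from the rule. Neither the split nor the difference between spots is given here for the other tested contigs. A spot with a reading set aside as an outlier on any array counts here as not meeting the rule.

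The 16 arrays sat on 2 slides, each with 4 control and 4 cyfluthrin arrays. Applied to slide 1 alone, the rule was met by 298 contigs (3.93% of those tested), of which 114, or 38.3%, also met it on slide 2. On slide 2 alone 345 met it (4.56%), of which the same 114, or 33.0%, also met it on slide 1. The mean was higher with cyfluthrin on slide 2 for 293 of the 298, and on slide 1 for 299 of the 345. The share of all tested contigs with a higher mean is not given here. Their median change was 0.09 on slide 2 and -0.08 on slide 1, so that share differs between the slides. The 86 are those of the 114 whose values also stayed apart across the slides.

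The changes were greater on slide 1 for most members. The median log2 change of the block was 3.79 on slide 1 and 2.78 on slide 2, and all 30 of its contigs changed more on slide 1, as did 42 of the 56 other members and 2950 of the 7574 tested contigs. The median of all tested contigs was -0.08 on slide 1 and 0.09 on slide 2. Leaving out control 6 and cyfluthrin 1, the extreme arrays for the block, brought the block's medians to 3.52 and 3.13, with 26 of the 30 still greater on slide 1.

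A test of the difference in change between slides, a contrast other than that of the rule, called no contig. The rule still asks for groups that are apart on each slide, which disfavours contigs with a weak change on either. The count among the 86 is therefore not free of the selection. With a treatment by slide interaction in limma, 0 contigs (0%) had an adjusted p under 0.05 and 107 (1.41%) had an unadjusted p under 0.05, and 3 of the 86 were among the latter. These were contig_3297, whose change was 2.65 on slide 1 and 1.58 on slide 2 (difference -1.07, SE 0.39), contig_3691 (difference -1.71, SE 0.73) and contig_5141 (difference -1.43, SE 0.65). Each had a limma adjusted p of 0.998. The 3 members with the greatest difference were contig_3691, contig_1993 and contig_6271, the last 2 at -1.48 and -1.47, all of the smaller tight set. Within a slide the row of an array follows its group, and the opposite way on the other slide, so this interaction and an effect of the row cannot be told apart. The block contigs share their variation between arrays, so their common direction is not 30 separate observations.

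No tested contig was called for a difference in level between the slides. The slide term in limma called 0 of the tested contigs (0%) at an adjusted p under 0.05, 182 (2.40%) had an unadjusted p under 0.05, and 0 of the 86 were among them. The rule asks for groups that stay apart across both slides, which disfavours contigs whose level shifts between slides. The 0 among the 86 is therefore no separate result about the members. Leaving out cyfluthrin 1 or cyfluthrin 8 let this fit call 1 and 2 contigs, with no member among them.

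For orientation, the same 16 arrays fitted with limma called 284 contigs, 3.75% of those tested, higher with cyfluthrin at an adjusted p under 0.05. All of the 86 except contig_1515 were among them, which follows from the rule having used this contrast and lends the members nothing further.

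How many contigs met the rule depended on the scaling between arrays. All 86 kept a positive change in each of the scalings and corrections tried. They were selected for higher values with cyfluthrin, so this sign was largely set by the rule. The share of all tested contigs with a positive change is not given here. The groups still did not overlap for 75 of the 86 with quantile normalization, 72 in the authors' deposited values, 61 with median scaling, 55 with normexp correction and 36 with spike-in scaling. The block was less touched than the other members: 29, 29, 29, 27 and 28 of its 30 contigs were still apart, and 46, 43, 32, 28 and 8 of the other 56. The block also had the wider gaps to begin with, at a median of 1.16 against 0.15, so these counts are not a separate property of it. With spike-in scaling the median change of all contigs was -0.24, and with normexp it was 0.27.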

How the data were processed

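Whole-body total RNA was measured on 16 single-colour arrays. The deposited scanner files hold the processed signal of each spot, an intensity that Agilent Feature Extraction had corrected for background and did not scale between arrays, per the file headers (version 10.7.1.1; the submitters' processing notes give 9.1). Log2 values fill the authors' deposited table, whose columns correlated at 0.999 or more with quantile-normalized values centred on each contig's median (0.9985 for cyfluthrin 1), with the same direction and column medians of -0.038 to 0.048. How the authors reached those values is not stated in the sources used here. Every column had a sample.

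Groups came from the sample titles, and slides and rows from the file headers. Over the 15208 contig spots, log2 signals were reduced by each array's 75th percentile; outlier spots were left out, saturated ones kept, and the spots of a contig averaged. The test set was the contigs with 50% or more of their spots well above background on 8 arrays or more of any group. R 4.3.3 ran the linear models (limma 3.58.1, moderated by eBayes, 2-sided), with p-values adjusted after Benjamini and Hochberg across the test set and a threshold of 0.05. Linkage and tables used scipy 1.17.1 and pandas 2.3.3. Spike-in scaling used 5 of 10 spike-in probes. Normexp had an offset of 50 and was run on median signals. The number of arrays limits the precision.

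The 86 contigs and all lists were chosen with earlier results of these data known. Contigs were named by rule: the 10 greatest and 4 smallest changes, the 5 widest and 4 narrowest gaps, the 4 just outside, those not above background on every control array, the 3 greatest and 3 least SDs with cyfluthrin, the 3 greatest interactions and the 3 closest pairs; others named were chosen after their values were seen. On simulated data, where 200 of 7570 contigs had a log2 change of 1, the fits recovered 77% for treatment, 14.5% for the interaction and 63% for slide, with 15, 1 and 7 false calls. With a log2 change of 2 they recovered 95.5%, 71.5% and 93.5%. These shares are not given for the block alone. Its median SD was 0.72 in control and 0.65 with cyfluthrin, against 0.29 and 0.38 for all tested contigs. How well the fits would recover a change in the block, whose contigs also vary together, was not tested.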

Additional observations from a re-analysis of the deposited data

Results flagged for a closer look

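In 4 of 68 groups of 8 arrays examined, an array lay far from the others of its group; chance alone flags about 1 group in 20. On cyfluthrin 1, contig_5795 measured 2.54, with the other exposed arrays between 0.42 and 1.32, and contig_8441 measured -0.52, with the others between -3.21 and -2.39. On cyfluthrin 5, contig_1515 measured 2.15, with the others between 1.75 and 1.92. On control 3, contig_8562, just outside the rule, measured -2.98, with the other controls between -2.48 and -2.12.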

How the results depend on the processing

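The number of contigs meeting the rule was 86, and 101 with quantile normalization, 95 in the authors' values, 73 with normexp, 69 with median scaling, 36 with spike-in scaling, 298 on slide 1 alone and 345 on slide 2 alone; a rule read on fewer arrays is easier to meet. Leaving out an array gave 86 to 123 (123 without control 5). The count called higher by limma was 284, and 163 with median scaling, 88 with normexp, 46 with spike-in scaling and 215 to 396 with an array left out. With the replicate block it was 174 of the 7574 tested contigs. Of these, 82 were members, which follows from the rule having used this contrast and lends the members nothing further. Same-numbered arrays share a slide, but only 4 of 8 pairs had deviations correlated over 0.1. Only 1 control array was closest to its own number, so the numbers are not taken as pairs. Apart from the construction of the slide counts, the cause of these shifts was not tested. The slide term called 0 to 2 contigs with an array left out, the interaction 0. The median change of the members stayed between 0.97 and 1.26 in the alternatives run, leaving out an array gave 1.13 to 1.26, and the median r of all members in control was 0.07, and 0.12 with quantile normalization, 0.043 to 0.099 with an array left out. The block, defined after seeing the data, held 26 contigs with normexp, 28 with spike-in scaling, 35 with quantile normalization, 30 and 37 with cuts at 0.4 and 0.6, and 28 to 33 with an array left out. For contigs above background on no control array the control level is only a bound.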
